A study of Mus musculus with 6 samples.

Results

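A set of 10 growth-restraining genes was followed in mouse blood progenitors: the transcription factors Foxo1, Foxo3 and Foxo4, the antiproliferative genes Btg1, Btg2, Btg3, Tob1 and Tob2, and a pair of genes that Foxo factors are known to switch on, Txnip and Ccng2. Members were taken by symbol, each from the probe sets that the platform annotation gives to that gene alone, and all 10 had such a probe set among 30627 annotated symbols. All 10 also lay above the level set for dim genes (1.92 on the log2 scale) and were among the 19010 genes tested.

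The arrays hold RNA of LSK cells (Lineage- c-Kit+ Sca1+), the sorted bone marrow fraction with the blood stem cells. Of the 6 arrays, 3 were of miR-21flox/flox:Mx1-Cre+ mice, called knockout here, and 3 of miR-21flox/flox:Mx1-Cre- littermates, called control. Both genotypes got pIpC, an interferon inducer, as 7 doses of 250 µg from an age of 4 to 6 weeks and were used 4 weeks after it. The Mx1 promoter answers to interferon, so Cre acts in many interferon-responsive cells, and since only the knockout mice carried Cre, its own effects and those of miR-21 loss cannot be told apart. The labels call the arrays biological replicates without giving the number of mice behind each, so p-values measure the spread between these arrays.

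Foxo proteins are transcription factors that hold cells in a resting state, switch on antioxidant and cell cycle inhibitor genes, and are driven out of the nucleus when PI3K and AKT signalling phosphorylates them. In mice, loss of Foxo1, Foxo3 and Foxo4 together depletes blood stem cells. Btg and Tob proteins bind the CCR4-NOT complex through a shared domain and speed the removal of poly(A) tails from mRNAs, and they restrain the cell cycle in many cell types. Btg2 is among the genes reported as direct targets of miR-21.

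The deleted microRNA and the promoters of 3 members are given first, from RefSeq on build GRCm38.p6, because the study removes the one and the members' known regulator binds a short motif that can be looked for in the others. The mature miR-21a-5p lies on chromosome 11, minus strand, chr11:86584120-86584141, and its seed (bases 2 to 8) is in capitals.
mmu-miR-21a-5p: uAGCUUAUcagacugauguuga

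Promoter windows, 250 bases before to 50 after the annotated start, were matched for 9 of the 10 members. The FOXO motif GTAAACA, or TGTTTAC on the other strand, was present in those of Btg1 and Txnip, and in 3.65% of all 32851 promoter windows. The CREB and ATF motif TGACGTCA, which reads the same on both strands, was present in that of Btg2 and in 1.79% of all windows. Windows of Btg1 (plus strand, chr10:96616751-96617050, motif 204 bases before the start), Txnip (plus strand, chr3:96557707-96558006, 121 bases before) and Btg2 (minus strand, chr1:134079106-134079405, 166 bases before) follow, read in the direction of the gene with the matched motif in capitals. A match is a run of letters and was not tested for binding.
Btg1: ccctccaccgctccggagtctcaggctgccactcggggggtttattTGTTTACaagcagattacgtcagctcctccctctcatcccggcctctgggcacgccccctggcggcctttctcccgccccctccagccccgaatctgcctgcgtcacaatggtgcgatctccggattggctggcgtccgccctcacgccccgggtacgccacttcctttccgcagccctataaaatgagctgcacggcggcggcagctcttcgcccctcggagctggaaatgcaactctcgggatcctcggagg
Txnip: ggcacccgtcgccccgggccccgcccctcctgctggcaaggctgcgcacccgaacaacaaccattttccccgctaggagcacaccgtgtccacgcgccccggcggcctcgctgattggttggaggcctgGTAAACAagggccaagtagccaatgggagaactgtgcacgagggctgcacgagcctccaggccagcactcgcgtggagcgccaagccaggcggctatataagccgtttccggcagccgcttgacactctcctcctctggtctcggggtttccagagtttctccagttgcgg
Btg2: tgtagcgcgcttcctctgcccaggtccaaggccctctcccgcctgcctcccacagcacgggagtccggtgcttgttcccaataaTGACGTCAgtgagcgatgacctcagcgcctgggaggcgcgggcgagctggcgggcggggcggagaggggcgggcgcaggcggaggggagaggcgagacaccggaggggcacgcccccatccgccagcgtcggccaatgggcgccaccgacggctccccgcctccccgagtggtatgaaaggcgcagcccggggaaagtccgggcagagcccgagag

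Of the 10 genes, 6 fell in the knockout LSK cells (Btg1, Btg3, Foxo1, Foxo3, Tob2 and Tob1), none rose, and Btg2, Txnip, Foxo4 and Ccng2 did not pass. At an unadjusted p under 0.05 in limma, 7 were lower and 0 higher. The fit was limma across all 19010 genes, two-sided, with Benjamini-Hochberg adjustment and a threshold of 0.05. Among all genes tested, 12.0% fell, 19.1% rose and 31.1% passed in either direction. The members, and the gene lists below, were chosen with earlier results of these data known. Their counts beside the shares of all genes are therefore a description and no independent test. Falls of at least 1.5-fold were seen for 3 members (Btg1, Btg3 and Foxo1), against 2.34% of all genes falling and 1.76% rising by as much. What the probe set counted for Btg3 measures is uncertain, as set out below, and this bears on the member counts. The median change over the 10 genes was -0.36 on the log2 scale, and that over all genes tested was 0.07. All knockout arrays lay below all control arrays for 7 of the 10 members and above them for 1, Txnip. Over all genes tested these shares were 17.0% and 30.9%. The excess of rises among all genes depended on scaling. Rises made up 61.5% of the calls as fitted, 50.3% with each array centred on the median of the genes tested and 40.0% with centring on the median of all genes, and the same 6 members passed with these centrings together with Btg2. Fewer cells of a type and less RNA per cell cannot be told apart in such bulk samples.

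**Figure D1:**
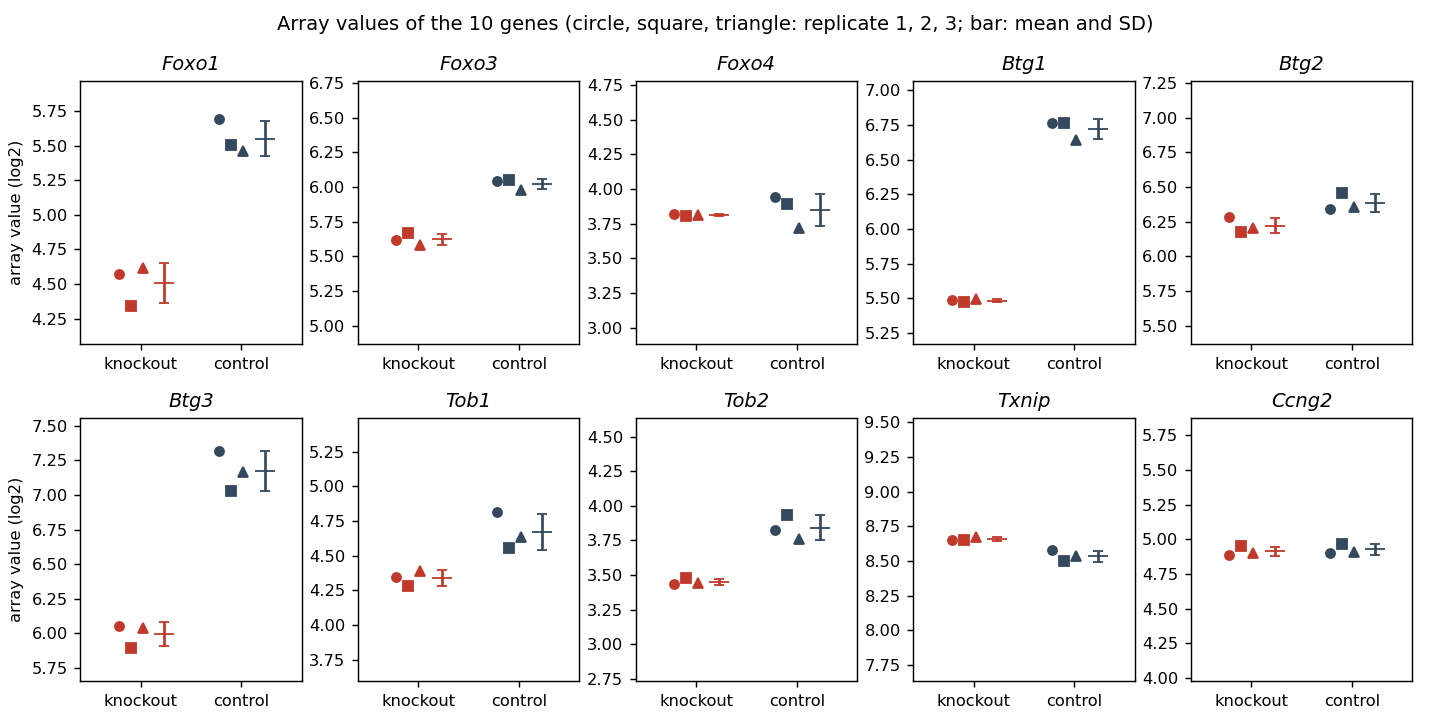
Log2 array values (vertical axis, the same span of 1.9 log2 units in each panel) of the 10 genes in the 3 knockout and 3 control arrays, with a bar for the mean and SD of each group. The groups are far apart for Foxo1, Btg1 and Btg3, and their points overlap for Foxo4 and Ccng2.

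Foxo1, which in blood is best known for its part in B cell development and in stem cell maintenance, had log2 values of 4.57, 4.34 and 4.61 in the knockout arrays, against 5.69, 5.50 and 5.46 in the control arrays. The lowest control array lay 0.84 above the highest knockout array, and the replicates of each genotype spread over 0.27 and 0.23. The change was -1.04 ± 0.09 (SE, 2.06-fold lower, limma adjusted p = 6.55e-05), and 0.978% of the genes tested had a change of larger size in either direction. Foxo3, the family member whose single loss is known to impair stem cell upkeep in aged mice, had 5.62, 5.67 and 5.58 in the knockout arrays, against 6.04, 6.05 and 5.98 in the control arrays. Its replicates were the tightest of those Foxo members that fell, and the groups did not overlap. Foxo3 fell by 0.40 ± 0.06 (SE, 1.32-fold lower, adjusted p = 0.00118).

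Foxo4, encoded on the X chromosome, had 3.82, 3.80 and 3.81 in the knockout arrays, against 3.94, 3.89 and 3.72 in the control arrays. One control array lay below the knockout arrays and the others above them. The change was -0.04 with a 95% confidence interval from -0.19 to 0.12 (adjusted p = 0.697), an interval that leaves out falls of the size seen for Foxo1 or Foxo3. The other family gene, Foxo6, was also tested and stood at 0.01 ± 0.11 (SE, adjusted p = 0.960).

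Differences within each array were used to compare the changes of paralogues, with an exact two-sided permutation test over the 6 arrays, adjusted over 7 pairs. With 3 arrays against 3 this exact permutation test cannot go below p = 0.1, so no pair could pass. The Foxo1 value minus the Foxo3 value was -1.11 ± 0.19 in the knockout and -0.47 ± 0.11 in the control arrays (SD, n = 3 each), so that Foxo1 changed by 0.64 log2 units more (exact p = 0.1, adjusted 0.14). Foxo1 minus Foxo4 moved by -1.0 and Foxo3 minus Foxo4 by -0.36, each with groups that did not overlap and the same p. In these arrays the measured fall was larger for Foxo1 than for Foxo3, and larger for Foxo3 than for Foxo4. Since p could not go below 0.1, the test cannot decide whether these changes differ.

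**Figure D2:**
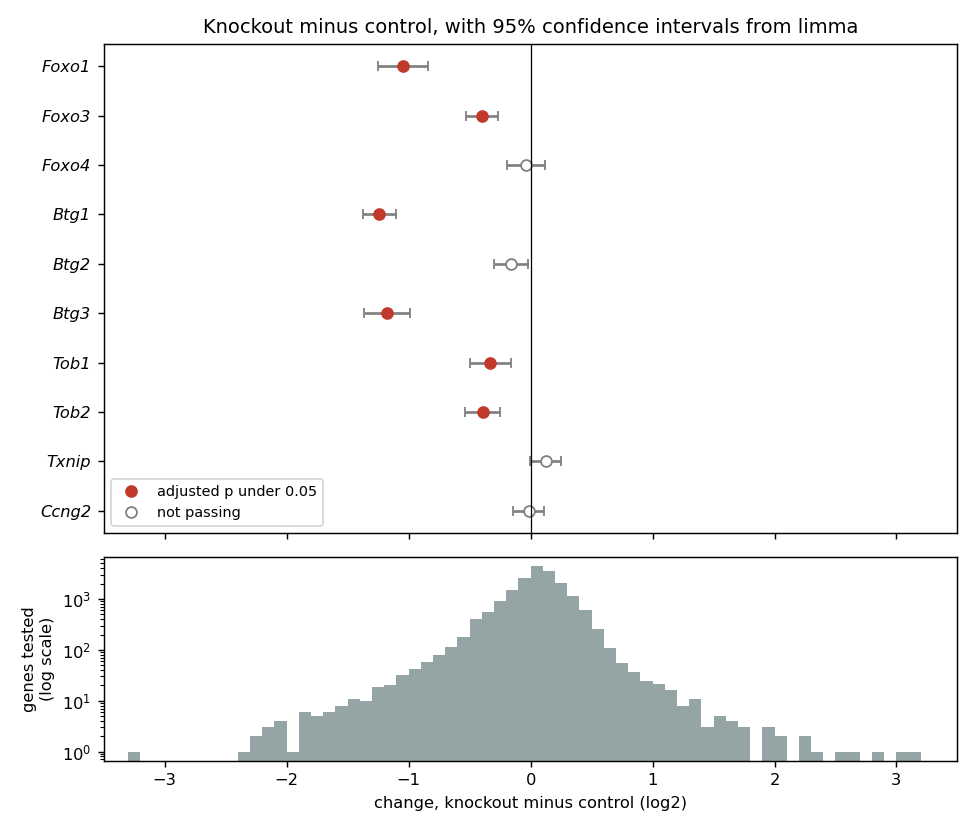
Change of each of the 10 genes, knockout minus control on the log2 scale, with 95% confidence intervals from limma (top), above the distribution of the changes of the 19010 genes tested (bottom, genes per bin of 0.1 on a log axis). The few genes with the largest changes in either direction lie outside the horizontal axis. Btg1, Btg3 and Foxo1 lie below -1, while Foxo4, Txnip and Ccng2 have intervals that hold 0.

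Btg1, an antiproliferative cofactor that keeps lymphocytes quiescent and is often mutated in lymphoid cancers, fell the most of the 10. Its values were 5.49, 5.47 and 5.49 in the knockout arrays, against 6.77, 6.77 and 6.64 in the control arrays. The knockout replicates lay within 0.02 of each other, and the highest was 1.15 log2 units under the lowest control array. The change was -1.24 ± 0.06 (SE, 2.36-fold lower, adjusted p = 3.26e-06), and 0.615% of the genes tested had one of larger size.

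Btg2, the closest relative of Btg1 and a gene also induced by p53 and by growth factors, had 6.28, 6.17 and 6.20 in the knockout arrays, against 6.34, 6.46 and 6.35 in the control arrays. The groups did not overlap, but the gap between them was 0.06, about the SD within each group, and the replicates spread over 0.11 in each. The change of -0.16 ± 0.06 (SE, 95% confidence interval from -0.30 to -0.02) did not pass (adjusted p = 0.0735). It passed when arrays were centred on the median of the genes tested (-0.20, adjusted p = 0.0411) or of all genes (-0.24, adjusted p = 0.0303). The value of Btg1 minus that of Btg2 was -0.74 ± 0.05 in the knockout and 0.34 ± 0.07 in the control arrays (SD, n = 3 each), a difference in change of -1.08 (exact p = 0.1, adjusted 0.14). Btg2, a reported target of the deleted miR-21, was thus lower in all knockout arrays by an amount that did not pass as fitted. Whether miR-21 acts on Btg2 in these cells was not tested.

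Btg3 is an antiproliferative relative whose protein can also bind E2F factors. Its probe set had 6.06, 5.90 and 6.04 in the knockout arrays, against 7.32, 7.03 and 7.17 in the control arrays. The gap between the groups was 0.98, and the change was -1.18 ± 0.08 (SE, 2.26-fold lower, adjusted p = 1.95e-05). What this probe set measures is uncertain. RefSeq places Btg3 on chromosome 16 (chr16:78359860-78377181, GRCm38.p6), whereas the name of the probe set carries chromosome 17. Names and RefSeq chromosomes matched for 98.8% of the 23430 probe sets of one gene that could be compared. In the numbering of the probe sets it follows Plcl2, which ends at 50688494 on chromosome 17, and comes before Gm20098, which starts at 51882727. Gm7334, a transcribed pseudogene in RefSeq, lies between these genes (chr17:50698525-50699892).

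A second probe set, named for chromosome 16, is annotated to both Btg3 and Gm7334, and was not used in the count for that reason. It had 5.89, 5.70 and 5.89 in the knockout arrays, against 6.86, 6.80 and 6.84 in the control arrays. The change was -1.01 ± 0.07 (SE, limma adjusted p = 1.16e-04, fitted over the 32985 probe sets that were not dim). Both probe sets were therefore lower in every knockout array, and whether the transcript of the gene, of its near copy or of both changed cannot be told apart with these probes.

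**Figure D3:**
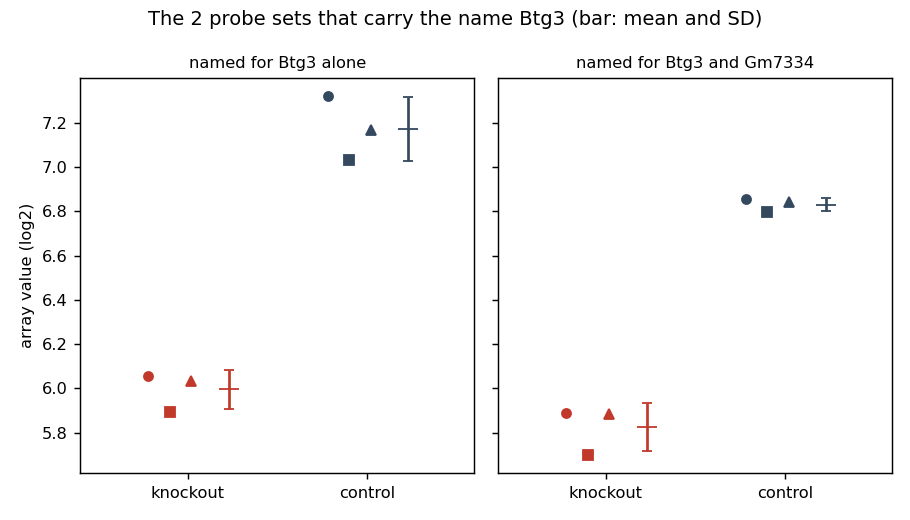
Log2 array values of both probe sets that carry the name Btg3, in 3 knockout and 3 control arrays each, with bars for the mean and SD. In the panel on the left the knockout arrays lie near 6.00 and the control arrays near 7.17. In the panel on the right they lie near 5.82 and 6.83.

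Tob1 and Tob2 encode the longer relatives of the Btg proteins, which carry binding sites for the poly(A)-binding protein as well. Tob1 had 4.35, 4.28 and 4.39 in the knockout arrays, against 4.81, 4.56 and 4.64 in the control arrays. It fell by 0.33 ± 0.08 (SE, 1.26-fold lower, adjusted p = 0.0110), with control replicate 1 the highest. Tob2 had 3.43, 3.48 and 3.44 in the knockout arrays, against 3.83, 3.94 and 3.76 in the control arrays, and fell by 0.39 ± 0.06 (SE, 1.31-fold lower, adjusted p = 0.00220). Neither gene's groups overlapped. The difference in change between Tob1 and Tob2 was 0.06, less than the SD of 0.19 between control arrays (exact p = 0.7). Btg4, the family gene known from egg cells, was dim, with values from 0.939 to 0.997 in the knockout and from 0.862 to 0.963 in the control arrays.

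**Figure D4:**
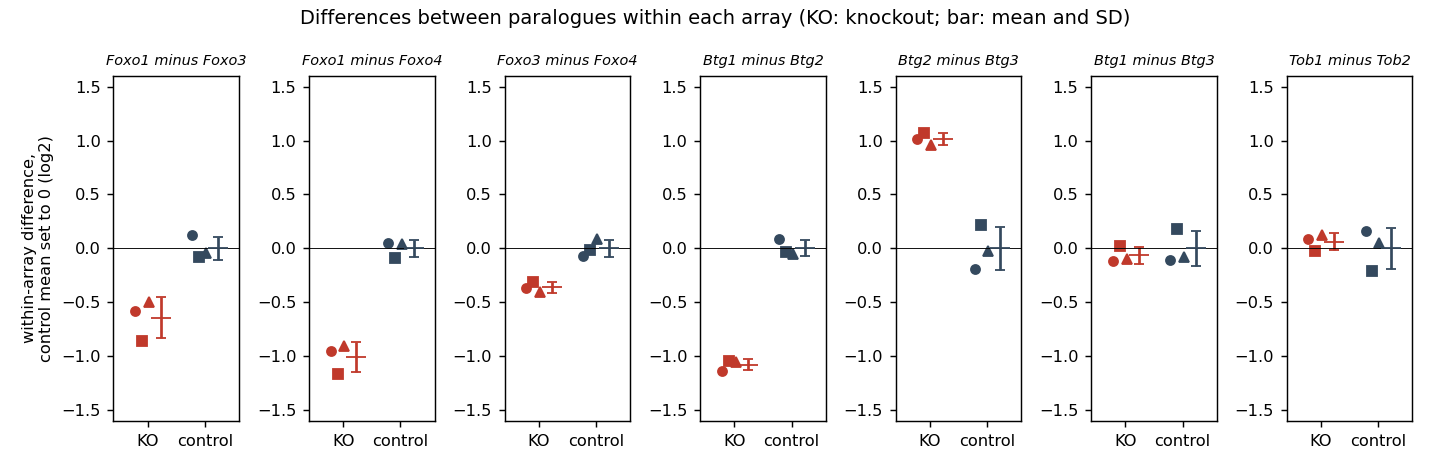
Within-array log2 difference between the members of 7 pairs of paralogues, with the control mean of each pair set to 0, for 3 knockout (left) and 3 control arrays, with bars for the mean and SD. The knockout arrays lie apart from the control arrays for both pairs that set Btg1 or Btg3 against Btg2 and for the 3 Foxo pairs, but not for Btg1 minus Btg3 or Tob1 minus Tob2.

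Txnip and Ccng2 were examined as readouts, since both are known targets of Foxo factors. Txnip, the inhibitor of thioredoxin and of glucose uptake, had 8.65, 8.65 and 8.67 in the knockout arrays, against 8.58, 8.50 and 8.53 in the control arrays. All knockout arrays lay above all control arrays by at least 0.07. The change was 0.12 ± 0.06 (SE, 95% confidence interval from -0.002 to 0.25) and did not pass (adjusted p = 0.122). Its size depended on scaling, with 0.05 after centring on the median of all genes and 0.04 after a second quantile normalization. Ccng2, an unusual cyclin that slows the cell cycle together with the phosphatase PP2A, had 4.89, 4.95 and 4.90 in the knockout arrays, against 4.90, 4.97 and 4.91 in the control arrays. The values overlapped throughout, and the change was -0.01 with a 95% confidence interval from -0.14 to 0.11 (adjusted p = 0.866). Its relative Ccng1, a p53 target, stood at -0.16 ± 0.06 (SE, adjusted p = 0.0815), and passed with arrays centred on the median of the genes tested (-0.20, adjusted p = 0.0420) or of all genes (-0.24, 0.0258). Of the members with the FOXO motif in their promoter windows shown above, Btg1 fell and Txnip did not pass.

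A wider list of 44 genes reported as Foxo targets in one or another tissue moved unevenly. It was not split by whether Foxo factors switch a gene on or off, so its counts do not show a direction of Foxo action. Falls were seen for 14 of the 37 tested and rises for 3, while 20 did not pass. Their median was -0.08, against 0.07 over all genes tested, of which 12.0% fell and 19.1% rose. The number of rises was 6 after a second quantile normalization and 5 with a replicate block. The insulin receptor substrate Irs2 had 7.01, 6.93 and 6.78 in the knockout arrays, against 8.80, 8.53 and 8.47 in the control arrays, and fell by 1.69 ± 0.10 (SE, adjusted p = 6.40e-06). The pro-apoptotic gene Bcl2l11 fell by 1.13 ± 0.07 and the CDK inhibitor gene Cdkn1a by 1.08 ± 0.06 (SE). The rises were those of Cited2 (0.51), the mitochondrial peroxidase Prdx3 (0.39) and the stress gene Gadd45a (0.35). Cdkn1b, the CDK inhibitor gene most often named as a Foxo target, stood at -0.16 ± 0.07 (SE, adjusted p = 0.129).

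**Figure D5:**
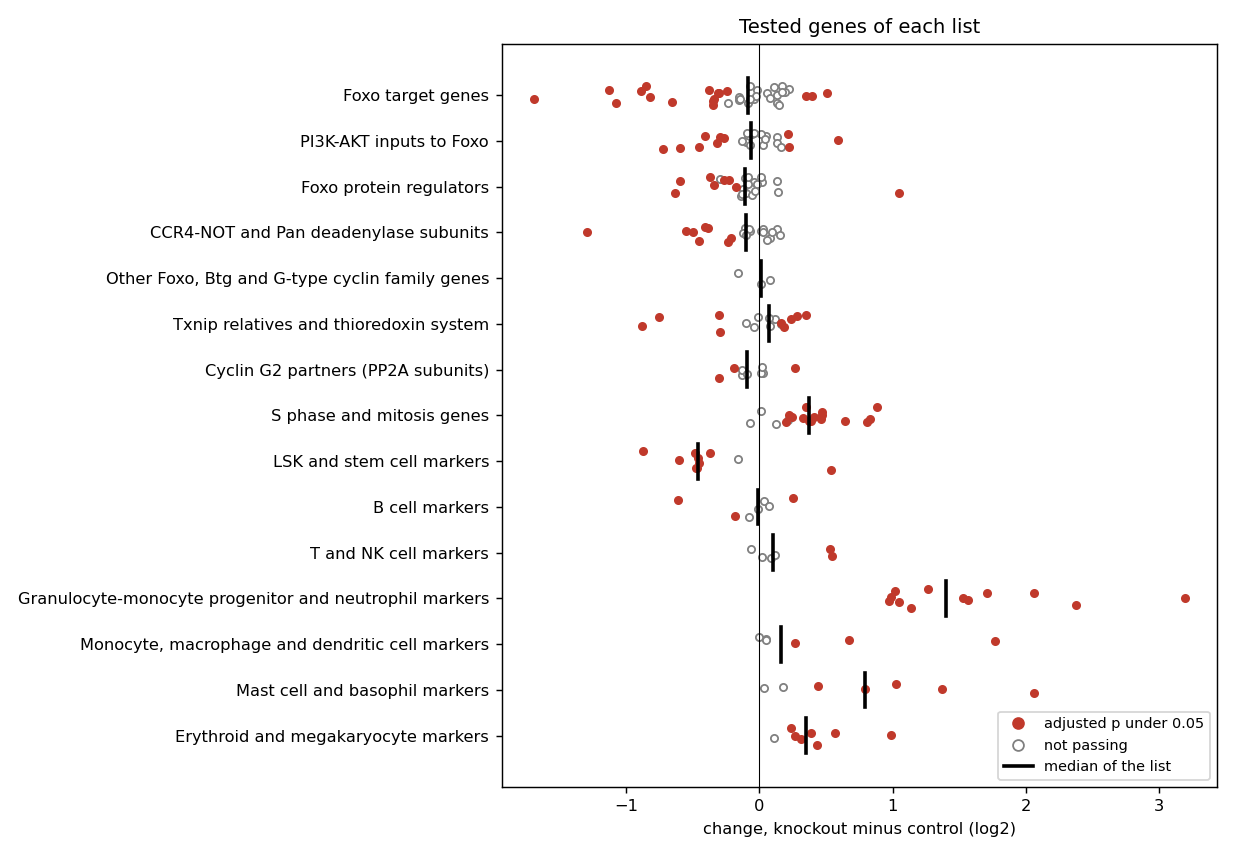
Change of every tested gene of the 15 lists, knockout minus control on the log2 scale, with filled points for an adjusted p under 0.05 and a black bar for the median of each list. Foxo targets spread from -1.69 to 0.51, and the 12 granulocyte-monocyte progenitor and neutrophil markers lie between 0.97 and 3.20.

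Genes of the PI3K and AKT signalling that acts on Foxo proteins also changed in both directions. The list holds activators, inhibitors and substrates of AKT together, so its counts do not show whether signalling to Foxo rose or fell. Among 24 tested genes of PI3K and AKT signalling, 7 fell, 3 rose and 14 did not pass (median -0.06). Over all genes tested, 12.0% fell and 19.1% rose. Sgk1, a kinase that phosphorylates Foxo proteins as AKT does, fell by 0.73 ± 0.07, the AKT phosphatase Phlpp1 by 0.60 ± 0.08 and the AKT substrate Gsk3b by 0.45 ± 0.05 (SE). Mlst8, a subunit of both mTOR complexes, rose by 0.59, the PI3K catalytic subunit Pik3cd by 0.23 and the PI3K regulatory subunit Pik3r5 by 0.21. The calls on Pik3cd and Pik3r5 were weak, the first lost without control replicate 1 or 3 or any one knockout replicate (0.18 to 0.25) and the second without control replicate 2 or knockout replicate 1 or 3 (0.19 to 0.22), so that the list held 1 rise without knockout replicate 1 or 3. Both were also lost with centring on the median of all genes (Pik3cd 0.15, Pik3r5 0.14). Akt1 and Akt2 were not among the genes that passed, at 0.05 and -0.09. Of 24 tested genes for proteins that modify, bind or degrade Foxo proteins, 7 fell, 1 rose and 16 did not pass (median -0.11), with 11 falls after centring on the median of all genes. Leaving out 1 array gave 6 or 7 falls. The call on the kinase gene Dyrk1a was lost without any one of the 6 arrays (-0.20 to -0.16). The one that rose was Skp2, the ubiquitin ligase subunit known to degrade FOXO1 in human cells, with 5.73, 5.65 and 5.79 in the knockout arrays, against 4.78, 4.67 and 4.57 in the control arrays. Its change was 1.05 ± 0.07 (SE, 2.07-fold higher, adjusted p = 1.63e-05). The kinase gene Mapk8 fell by 0.63, the acetyltransferase Crebbp by 0.60 and the ubiquitin ligase Mdm2 by 0.37.

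The CCR4-NOT complex, through which Btg and Tob proteins act, was a part of a wider list of deadenylase and RNA-binding genes. That list had 8 falls, no rise and 13 genes that did not pass among 21 tested (median -0.10). Leaving out 1 array gave 6 to 8 falls, with the calls on Parn and Tnrc6c lost in several of these fits. Shares over all genes tested were 12.0% falling and 19.1% rising. At an unadjusted p under 0.05 in limma, 2 genes of the list were higher and 8 lower. Of the CCR4-NOT subunits tested, Cnot7 and Cnot6l (-0.39) fell and no other passed. Cnot7, a catalytic subunit that Btg and Tob proteins bind, had 5.58, 5.61 and 5.80 in the knockout arrays, against 6.10, 6.10 and 6.15 in the control arrays. It fell by 0.46 ± 0.07 (SE, adjusted p = 0.00173), whereas its close relative Cnot8 stood at 0.13 and did not pass. The RNA-binding protein gene Cpeb2 fell by 1.30 ± 0.11, Pan3 of the second deadenylase complex by 0.55 ± 0.07 and the helicase Ddx6 by 0.50 ± 0.06 (SE).

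Relatives and partners of Txnip split by gene. Of 16 tested, 5 rose, 4 fell and 7 did not pass (median 0.07), against 19.1% rising and 12.0% falling among all genes. Rises numbered 2 or 3 when any knockout array, or the control array numbered 2 or 3, was left out, and 1 after centring on the median of all genes. The arrestin-domain gene Arrdc3 had 6.09, 5.94 and 6.05 in the knockout arrays, against 7.00, 6.84 and 6.88 in the control arrays, and fell by 0.88 ± 0.07 (SE, adjusted p = 3.32e-05). Arrdc2 rose by 0.28, while Arrdc1 at 0.08 and Arrdc4 at -0.04 did not pass and Arrdc5 was dim. The glucose transporters Slc2a3 and Slc2a1, which Txnip protein helps to remove from the cell surface, fell by 0.76 and 0.30, and thioredoxin reductase Txnrd1 fell by 0.30. Mlx, a partner of the glucose-sensing factors that switch on Txnip, rose by 0.35 and the peroxiredoxin Prdx2 by 0.23. The call on Prdx2 was lost without knockout replicate 3 (0.20) or control replicate 2 (0.22). Both calls were lost with centring on the median of all genes (Mlx 0.28, Prdx2 0.16). Among 9 tested PP2A subunits, to which cyclin G proteins bind, Ppp2r5e (-0.31) and Ppp2r5a (-0.19) fell, Ppp2r5d (0.27) rose and 6 did not pass (median -0.09). The call on Ppp2r5a was lost without any one of the 6 arrays (-0.23 to -0.15). The remaining family list of Foxo6, Btg4, Ccng1 and Ccni had 3 tested genes, of which 0 passed in limma and 1, Ccng1, had an unadjusted p under 0.05 (median 0.01).

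Genes with the most similar profiles were found by the root mean square distance between values centred on each gene's mean over the 6 arrays. For Foxo1 the 4 nearest were the uridylyltransferase Tut7 (distance 0.049), the kinase Map2k3 (0.053), the adaptor Lax1 (0.054) and the growth factor Hbegf (0.055), with changes from -1.10 to -1.01. For Btg1 they were the ubiquitin ligase Trim25 (0.035), Plxdc2 (0.037), the stress factor Atf3 (0.055) and the Notch ligand Jag2 (0.059), with changes from -1.27 to -1.21. For Txnip they were Acat3 (0.0084), the arginine methyltransferase Prmt1 (0.012), Tpm2 (0.014) and Mrps18b (0.015), which did not pass either. With a single contrast these distances mostly reflect the size of the change.

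The sorted cells differed in other markers along with these genes. Each count below stands beside shares of 12.0% falling and 19.1% rising among all genes tested. Of 10 tested LSK and stem cell markers 8 fell and 1 rose, with mean levels of the list from 5.68 to 5.77 in the knockout and from 6.08 to 6.15 in the control arrays. The stem cell factor receptor gene Kit, part of the sort, was high in all arrays, at 8.15 ± 0.04 in the knockout and 8.61 ± 0.07 in control (SD, n = 3 each), while Ly6a, the gene of Sca-1, had no probe set of its own. All 12 granulocyte-monocyte progenitor and neutrophil markers rose, with mean levels from 6.75 to 6.86 in the knockout and from 5.12 to 5.36 in the control arrays. S phase and mitosis genes rose in 15 of 19 cases and none fell in limma, with 16 higher and 0 lower at an unadjusted p under 0.05 (6.95 to 7.02, against 6.57 to 6.66 in control). Mast cell and basophil markers rose in 5 of 7 cases (4.18 to 4.33, against 3.48 to 3.54 in control) and erythroid and megakaryocyte markers in 7 of 8 (4.41 to 4.50, against 4.03 to 4.04 in control). Of 6 tested monocyte, macrophage and dendritic cell markers 3 rose (3.74 to 3.81, against 3.34 to 3.40 in control), and of 6 T and NK cell markers 2 rose (2.79 to 2.89, against 2.64 to 2.69 in control). Leaving out 1 array gave 12 to 14 rises among S phase and mitosis genes and 5 or 6 among mast cell and basophil markers. Rises then numbered 5 to 7 among erythroid and megakaryocyte markers and 2 or 3 among monocyte, macrophage and dendritic cell markers. B cell markers, of interest because lymphocytes use Foxo1 and Btg1, had 2 falls and 1 rise among 7 tested (1 fall when any knockout array, or the control array numbered 1 or 2, was left out, and no rise without knockout replicate 3), with mean levels from 3.51 to 3.53 in the knockout and from 3.56 to 3.61 in the control arrays. Cd3d, Cd3g, Ncr1, Ms4a1, Adgre1, Fcgr1 and Ms4a2 were dim. The part of these shifts in the falls of Foxo1, Foxo3, Btg1, Btg3, Tob1 and Tob2 was not tested.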

How the data were processed

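The authors deposited 1 table of log2 values with a column per array, and RMA is named in the submitters' processing notes. RMA corrects background, gives all arrays one intensity distribution and summarises probes, so a shift shared by most transcripts would be lost. The log base is not stated, and base 2 was inferred from values that run up to 11.5. Software version and annotation build are not given in the sources used here. Array medians lay between 1.90 and 1.95, and the number of arrays limits the precision.

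Symbols came from the platform annotation, updated by Entrez ID through RefSeq (GRCm38.p6). Of 65956 probe sets, 31080 had 1 gene, 1670 several and 33206 none listed. The brightest probe set stood for a gene, and 11617 genes with a mean under the median of all probe sets (1.92) were left out as dim. limma 3.58.1 in R 4.3.3 was run on the 19010 others and tested on simulated data. Changes are knockout minus control, ± gives the SE for changes and the SD for group means. Members and lists were chosen with earlier results of these data known. The rule for named genes took all members, up to 3 passing genes in each direction per pathway list, family relatives and 4 similar profiles for the member with the lowest p in each of 3 groups. Akt1, Akt2, Cdkn1b, Cnot7, Cnot8, Slc2a1, Txnrd1, Kit and Ly6a and the dim markers were named after their values were seen. Alternatives were other filters, scalings, probe set rules and variance settings, a replicate block and leaving out each array.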

Additional observations from a re-analysis of the deposited data

How the results depend on the processing

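The same 6 members fell and none rose under all 18 alternatives, of which 3 were chosen after seeing the data: 2 centrings and the second Btg3 probe set, with which Btg3 was at -1.01. That probe set is shared with Gm7334, so the fall of Btg3 itself stays uncertain. With each array centred on the median of the genes tested or of all genes, Btg2 also passed (-0.20 and -0.24) and the median over the members was -0.40 and -0.43. After a second quantile normalization that median was -0.33, Foxo4 was at 0.0018 and Ccng2 at 0.022, so both unpassed changes turned sign. Leaving out 1 array gave medians from -0.38 to -0.32, Foxo4 from -0.10 to 0.0074, Ccng2 from -0.033 to 0.0069, Btg1 minus Btg3 from -0.12 to 0.027 and Tob1 minus Tob2 from -0.041 to 0.14. Higher genes in all numbered 3630, 1952 with centring on the median of all genes, and 2322 to 3093 without 1 array (2322 without knockout replicate 3). For these values the cause was not tested. Of 765 results on gene lists under the alternatives, 69 moved beyond 1.5 times or 1 SD, 12 up and 57 down.

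Replicate numbers are shared between genotypes, but nothing in the labels pairs the mice, and the correlations of deviations of same-numbered arrays were 0.175, 0.196 and 0.071. With the replicate number as a block, 4549 genes were higher and 2618 lower, and 6 members fell. Each knockout array correlated best with the control array of its own number, a hint from the data and not from the design.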
